A study of Mus musculus with 6 samples.

Results

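Purkinje cells are the output neurons of the cerebellar cortex, and 10 genes used to mark them were followed in RNA of the whole cerebellum. The markers were Calb1, Itpr1, Car8, Pcp2, Pcp4, Ppp1r17, Rora, Foxp2, Lhx1 and Lhx5, taken by gene symbol from a table of 41228 entries. Each of the 10 was listed once and all 10 passed the filter on low counts, which kept 15457 genes. The tissue came from C57BL/6 mice aged 6 days, with 3 libraries labelled wild type and 3 labelled SnoN cKO, a conditional knockout of SnoN. SnoN, encoded by Skil, is a relative of the oncoprotein Ski and a corepressor of Smad factors, and the series asks what it does for the proliferation of granule neuron precursors. The sources used here do not give the deleted exons, the driver of the deletion or the cells in which it took place. Nothing in the labels states that the libraries of a genotype came from separate litters, so p-values measure the spread between these libraries.

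Purkinje cells arise from the ventricular zone of the embryonic cerebellum, use GABA as transmitter and carry the only output of the cortex to the cerebellar nuclei. In the first weeks after birth they settle into a single layer, grow their dendritic tree and receive parallel fibres from granule neurons, whose precursors they in turn stimulate with Sonic hedgehog. Their calcium signalling runs through the G protein subunit Gnaq and the phospholipase Plcb4 to inositol trisphosphate, which opens the store channel Itpr1. None of the 10 markers is exclusive to Purkinje cells in every region. Itpr1 and Rora are also used by other neurons, Foxp2 and Calb1 by neurons of the brainstem and other nuclei, and Lhx1 and Lhx5 by other neurons born from ventricular zones. In bulk tissue a lower level can come from fewer cells or from less RNA per cell, which cannot be told apart.

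Rora encodes a nuclear receptor that binds the letters AGGTCA next to an A and T rich stretch, and it drives the maturation of Purkinje cells. The start-site windows of Pcp2 and Pcp4 are shown because both hold these letters. They are RefSeq windows of build GRCm38.p6, from 250 bases before to 50 bases after the start site, written along the gene. The Pcp2 window lies at chr8:3625498-3625797 on the minus strand and the Pcp4 window at chr16:96467356-96467655 on the plus strand. Capitals mark AGGTCA or its reverse complement TGACCT, and in Pcp4 also CAGGTG, the reverse complement of the E-box CACCTG.
Pcp2: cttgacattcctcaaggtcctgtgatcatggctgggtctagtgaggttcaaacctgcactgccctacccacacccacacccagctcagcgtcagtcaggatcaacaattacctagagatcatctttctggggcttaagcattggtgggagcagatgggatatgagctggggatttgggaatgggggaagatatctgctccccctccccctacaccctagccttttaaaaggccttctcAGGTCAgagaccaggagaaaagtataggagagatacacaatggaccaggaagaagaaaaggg
Pcp4: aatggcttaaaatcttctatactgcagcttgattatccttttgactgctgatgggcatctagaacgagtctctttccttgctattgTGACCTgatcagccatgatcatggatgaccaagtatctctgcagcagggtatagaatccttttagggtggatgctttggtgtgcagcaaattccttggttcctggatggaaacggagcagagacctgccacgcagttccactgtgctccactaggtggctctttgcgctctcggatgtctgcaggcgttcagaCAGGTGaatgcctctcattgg

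In Pcp2 the match began 12 bases before the start site on the strand of the gene, and in Pcp4 it began 164 bases before the start site on the opposite strand. Windows were at hand for 4 of the 10 markers, Pcp2, Pcp4, Rora and Lhx1, with 7 windows in all because Pcp2 has 4 start sites. AGGTCA was found on either strand in at least 1 window of 2 of the 4 genes, and in 3 of the 4 Pcp2 windows, which overlap. It was held by 16.3% of all 32851 windows of this length in RefSeq's set. CACCTG was found in 20.2% of all windows, the LIM homeodomain core TAATTA in 5.29%, the TATA box TATAAA in 13.6% and the forkhead core GTAAACA in 3.65%. The LIM homeodomain core, the E-box and the TATA box letters also occurred in the Pcp2 window of another start site, and the forkhead core in none of the 7. The Rora and Lhx1 windows held none of the 5 motifs.

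The targeted gene Skil was at 89.5, 87.5 and 88.85 CPM in wild type 1, 2 and 3 and at 76.0, 74.7 and 77.5 CPM in SnoN cKO 1, 2 and 3, where CPM is edgeR's count scaled to the size of the library with TMM factors. Every SnoN cKO library was below every wild type library, as for 6.73% of all genes tested. The log2 fold change of Skil was -0.22 (SE 0.04), a fold of 0.858 with a 95% interval from 0.804 to 0.916. Its unadjusted p was 0.000379 and its adjusted p 0.637, both from edgeR. That adjusted p was the smallest over all genes, and Lhx5 shared it at an unadjusted p of 0.0252 from edgeR. The targeted gene itself was therefore not called at an adjusted p under 0.05. Libraries held between 12605870 and 17757711 counts. Counts of Xist, expressed from the inactive X chromosome, went against the sex label in 2 libraries. SnoN cKO 1 is labelled female and had 2.74 CPM of Xist, while SnoN cKO 2 is labelled male and had 2536 CPM, and the Y-linked gene Ddx3y was at 89.8 and 0 CPM in these libraries. Both carry the same genotype label, and results are given with and without them. SnoN cKO 2 also stood apart in tissue next to the cerebellum. Its 14 choroid plexus genes summed to 185.5 CPM against 2173 to 4028 CPM in the other 5 libraries, and 10 of 25 brainstem and spinal cord genes were at 0 in it, among them Hoxa5, Hoxb3 and Hoxa4. In SnoN cKO 3, Gm42418, a transcript that overlaps ribosomal RNA, took 3.75% of the counts. It was also raised in wild type 2, at 0.69% of the counts. In CPM it was at 39050 in SnoN cKO 3, 6921 in wild type 2 and 505 to 656 in the other libraries.

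None of the 10 markers passed the adjusted test of genotype, and their fitted folds ran from 0.930 for Foxp2 to 1.16 for Lhx5. In edgeR's quasi-likelihood fit 0 of 10 had an adjusted p under 0.05, as did 0% of all 15457 genes tested, and the adjusted p of the markers lay between 0.637 and 0.999. Of the 10 markers 9 had a positive log2 fold change and 1, Foxp2, a negative one, with a median of 0.065 against -0.002 over all genes, of which 49.0% were positive. Over all genes 1187 had an unadjusted p under 0.05, and DESeq2 called 6 genes after adjustment, none of them a marker. Calb1 and Lhx5 had an unadjusted p under 0.05, 2 of 10 and both higher in SnoN cKO, where 3.21% of all genes were higher at that level, 4.47% lower and 7.68% either. There were 0 such markers when wild type 1, wild type 2 or SnoN cKO 2 was left out, without wild type 3 there were 3 and without SnoN cKO 3 there was 1. With SnoN cKO 1 and 2 both left out there were 0, and 5 of 10 log2 fold changes were positive with a median of 0.02. DESeq2 and limma-voom called 0 of the 10 and found 2 each at an unadjusted p under 0.05.

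**Figure D1:**
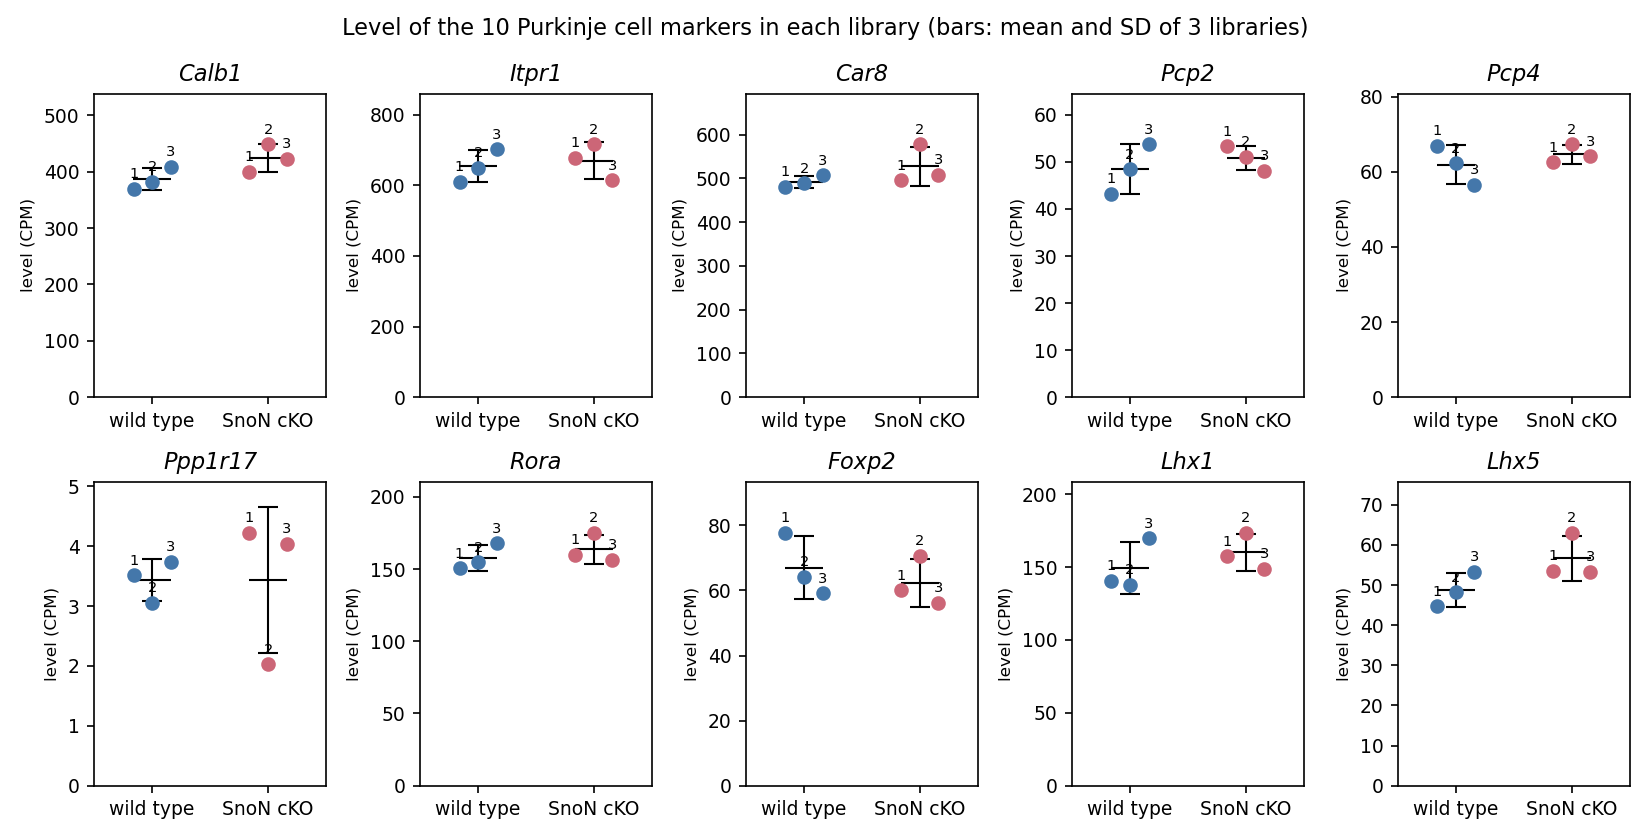
Level of each marker in CPM, on a linear axis from 0, in the 3 wild type and 3 SnoN cKO libraries; digits are the replicate numbers and bars the mean and SD. The genotypes overlap in 9 of the 10 panels, and in Lhx5 the highest wild type and lowest SnoN cKO libraries are at the same height to the eye.

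Among the calcium genes, Calb1, which encodes the calcium-buffering protein calbindin (ENSMUSG00000028222 in GENCODE M21), was at 369.8, 382 and 409 CPM in wild type 1, 2 and 3. In SnoN cKO 1, 2 and 3 it was at 399.9, 449 and 424 CPM. Wild type 3 lay above SnoN cKO 1, so the genotypes overlapped, while SnoN cKO 2 and 3 were above all wild type libraries. The log2 fold change was 0.13 (SE 0.06, adjusted p = 0.638 from edgeR), a 1.10-fold higher level with a 95% interval from 1.004 to 1.196.

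Car8 (ENSMUSG00000041261) encodes a relative of the carbonic anhydrases that has no enzyme activity and binds Itpr1, lowering its affinity for inositol trisphosphate. Its level was 481, 489 and 507 CPM in wild type 1, 2 and 3 and 496, 578 and 509 CPM in SnoN cKO 1, 2 and 3. SnoN cKO 2 was high, and the other SnoN cKO libraries lay within or just above the wild type range. The fold was 1.07, with an interval from 0.976 to 1.18 (adjusted p = 0.6845 from edgeR). On the log2 scale this was 0.10, and 0.03 without SnoN cKO 2.

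Itpr1 (ENSMUSG00000030102), the calcium release channel itself, was at 611, 649.8 and 702 CPM in wild type and 678.5, 717 and 615 CPM in SnoN cKO 1, 2 and 3. The lowest library of each genotype and the highest of each lay close together, so the genotypes overlapped over nearly their whole range. The log2 fold change was 0.035 (SE 0.07), and the interval of the fold ran from 0.923 to 1.14. Without wild type 1 or without SnoN cKO 2 the log2 fold change was -0.01 and -0.02.

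**Figure D2:**
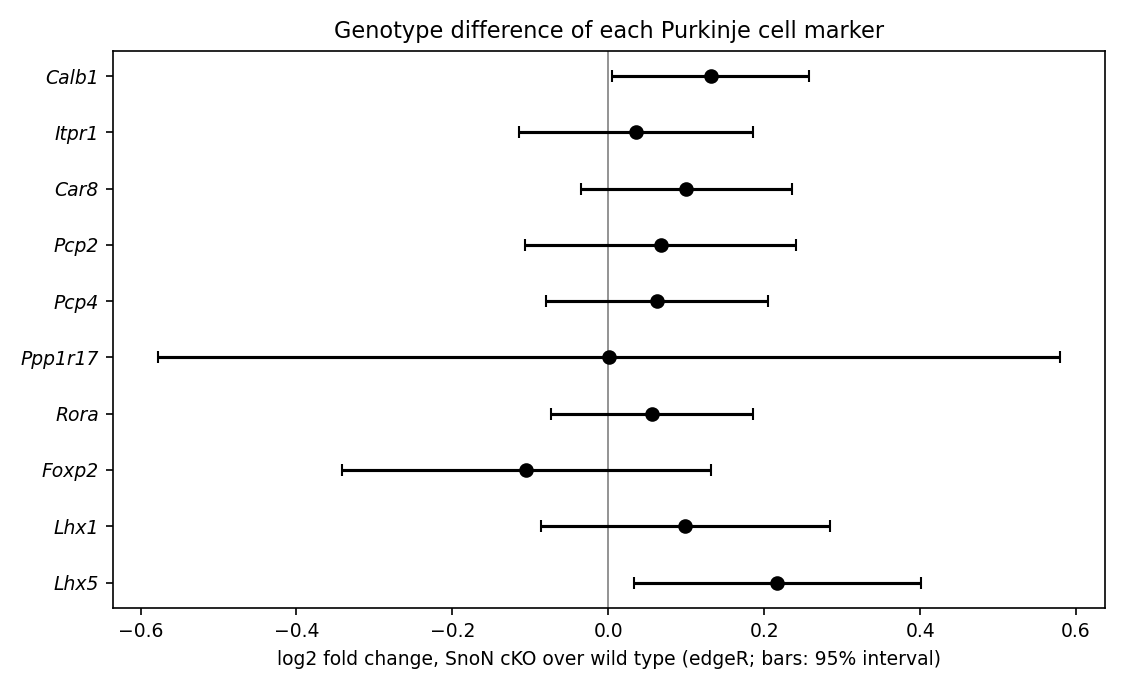
Log2 fold change of SnoN cKO over wild type for each marker on the x axis, from edgeR's quasi-likelihood fit of 6 libraries, with 95% intervals as bars. The intervals of Calb1 and Lhx5 lie above 0 before adjustment, those of the other 8 markers include 0, and that of Ppp1r17 is the widest of the 10.

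The next 3 markers encode small regulators of signalling. Pcp2 (ENSMUSG00000004630), also called L7, binds the alpha subunits of inhibitory G proteins and is a standard driver of Purkinje cell expression. It was at 43.3, 48.5 and 53.8 CPM in wild type 1, 2 and 3 and at 53.3, 51.1 and 48.2 CPM in SnoN cKO 1, 2 and 3. All SnoN cKO libraries lay between the lowest and the highest wild type library. The log2 fold change was 0.07 (SE 0.08) and turned to -0.01 without wild type 1. In GENCODE M21, 941 of the 1828 exon bases of Pcp2 are shared with Pet100 on the opposite strand, and the kit does not record strand. Within the shared bases reads of the pair could not be told apart, and Pet100 was at 5.78 to 6.57 CPM.

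Pcp4 (ENSMUSG00000090223) encodes PEP-19, which speeds the exchange of calcium on calmodulin. Its level was 67.0, 62.3 and 56.6 CPM in wild type and 62.6, 67.4 and 64.1 CPM in SnoN cKO. Wild type 3 was the low library here, in contrast to most other markers, and the genotypes overlapped. The fold was 1.04 with an interval from 0.946 to 1.15. Its log2 fold change of 0.06 became 0.002 without wild type 3, 0.03 without SnoN cKO 2 and 0.12 without wild type 1. Pcp4 shares 243 of 1026 exon bases with Igsf5 on the same strand, and Igsf5 was at 0.609 to 1.65 CPM.

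Ppp1r17 (ENSMUSG00000002930) encodes G-substrate, which inhibits protein phosphatases when the cGMP-dependent kinase of Purkinje cells has phosphorylated it. It was the marker with the fewest reads, with 45, 46 and 48 counts in wild type 1, 2 and 3, while SnoN cKO 1, 2 and 3 had 54, 30 and 69. In CPM these were 3.52, 3.06 and 3.74 against 4.23, 2.03 and 4.05. SnoN cKO 2 was the lowest of the 6 libraries and SnoN cKO 1 and 3 were the highest, so the SnoN cKO libraries lay on either side of wild type. Its log2 fold change was 0.001 (SE 0.26), and the interval of the fold, from 0.671 to 1.49, was the widest of the 10 markers.

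Among the transcription factors, Lhx5 and Lhx1 are LIM homeodomain paralogues that act together in early Purkinje cell differentiation. Lhx5 (ENSMUSG00000029595) was at 44.8, 48.2 and 53.31 CPM in wild type 1, 2 and 3 and at 53.6, 63.1 and 53.32 CPM in SnoN cKO 1, 2 and 3. It was the 1 marker of 10 with every SnoN cKO library above every wild type library, by 53.32 against 53.31 CPM, where 6.95% of all genes were separated in that direction and 6.73% in the other. SnoN cKO 2 was the high library, and SnoN cKO 1 and 3 lay at the level of wild type 3. On the log2 scale the fold change was 0.22 (SE 0.08, adjusted p = 0.637 from edgeR), a 1.16-fold higher level with an interval from 1.02 to 1.32. Without SnoN cKO 2 it was 0.13 on the log2 scale.

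Lhx1 (ENSMUSG00000018698) was at 141, 138 and 169.7 CPM in the wild type libraries and at 158, 174 and 149 CPM in SnoN cKO. Wild type 3 lay above SnoN cKO 1 and 3, and the fold was 1.07 (interval 0.942 to 1.22). Its log2 fold change of 0.10 became 0.04 without SnoN cKO 2, 0.06 and 0.05 without wild type 1 and 2, 0.16 without SnoN cKO 3 and 0.20 without wild type 3. Within a library, Lhx1 reads outnumbered Lhx5 reads by a ratio of 3.14, 2.86 and 3.18 in wild type, where the SnoN cKO ratios were 2.94, 2.75 and 2.79, and the genotypes overlapped.

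Rora (ENSMUSG00000032238), whose loss in the staggerer mouse halts Purkinje cell maturation, was at 150.5, 155 and 168 CPM in wild type and 159.9, 175 and 156 CPM in SnoN cKO. Only SnoN cKO 2 lay above the wild type range, and the log2 fold change was 0.06 (SE 0.06). It was 0.005 without SnoN cKO 2, 0.02 without wild type 1, and 0.10 without wild type 3 or SnoN cKO 3. Molecular layer interneurons also express Rora.

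Foxp2 (ENSMUSG00000029563), a forkhead repressor kept by Purkinje cells and by neurons of the cerebellar nuclei and brainstem, was the 1 marker with a negative log2 fold change. It was at 77.8, 64.2 and 59.1 CPM in the wild type libraries and at 60.1, 70.65 and 56.2 CPM in SnoN cKO. Wild type 1 was the highest library and SnoN cKO 3 the lowest, and the genotypes overlapped. Its log2 fold change was -0.105 (SE 0.106) and was 0.01 without wild type 1. Wild type 1 also had 22.4 CPM of Lhx9 and 7.90 CPM of Lhx2, homeobox genes of the cerebellar nuclei and neighbouring midbrain, where the highest other library had 5.30 and 2.96 CPM, respectively. The part of those cells in the Foxp2 value was not tested.

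Levels of different genes can be compared only per length. Per kilobase of exon in GENCODE M21, the wild type level was 128 CPM per kb for Car8, followed by 79.9 for Calb1, 60.4 for Pcp4, 36.7 for Lhx1, 35.7 for Itpr1, 26.5 for Pcp2, 18.1 for Lhx5, 12.1 for Rora, 4.1 for Foxp2 and 1.96 for Ppp1r17. Lhx1 and Itpr1 overlapped over the 3 wild type libraries, with 33.9 to 41.7 and 33.4 to 38.3 CPM per kb, and the other neighbours in this order did not. Per kilobase of the longest coding transcript Itpr1 came to 66.3 CPM per kb, above Lhx1 at 38.9, and Pcp4 at 96.6 stood beside Calb1 at 91.7, while Car8 remained first and Ppp1r17 last. The sources used here do not name the annotation behind the deposited counts, so these lengths are approximate. The exon lengths of Pcp2 and Pcp4 include the 941 and 243 bases shared with Pet100 and Igsf5. The places of Pcp2 and Pcp4 in the order are less certain for that reason.

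The spread between libraries differed from marker to marker. The SD of log2 CPM within genotypes was 0.11 for Itpr1 and 0.41 for Ppp1r17, for which counting alone gives 0.015 and 0.21. The gene-wise biological coefficient of variation, which is the spread left after counting error, was 6.41% for Pcp4, the lowest of the 10, and 18.7% for Ppp1r17, the highest. Each marker was set beside the genes whose mean level was within 2 times its own. Of those genes 69.6% had a lower coefficient than Pcp4, 98.2% a lower one than Foxp2 and 97.6% a lower one than Lhx1, the range over all 10 being 69.6% to 98.2%.

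**Figure D3:**
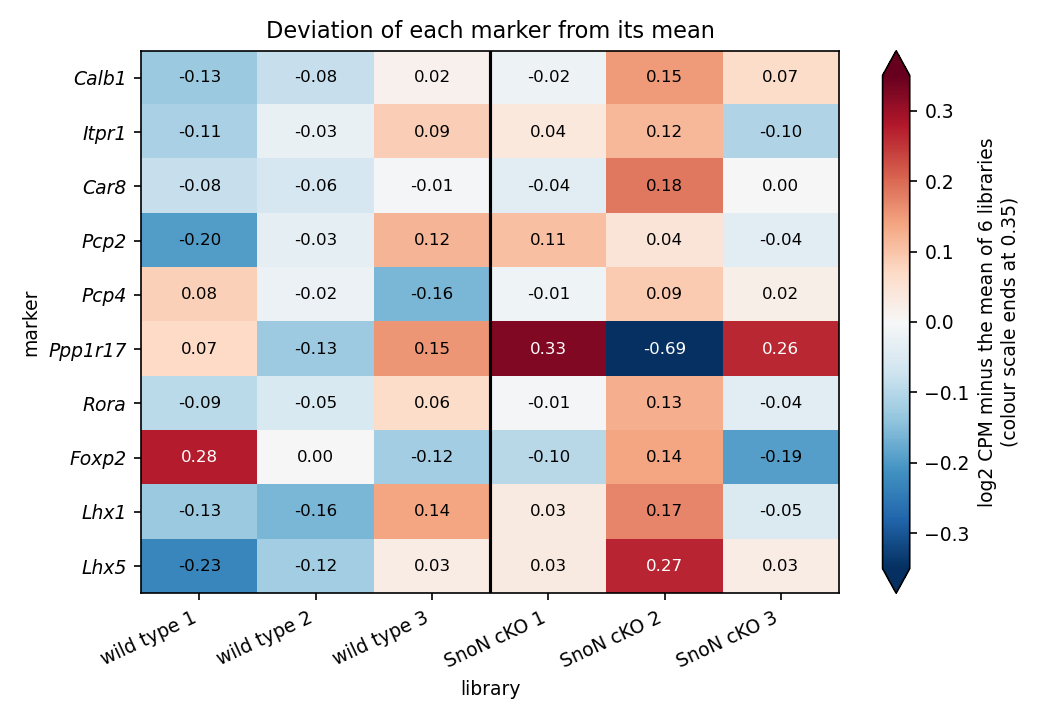
Log2 CPM of each marker (rows) in each library (columns) minus its mean over the 6 libraries, printed in the cells and shown as colour. Most markers are low in wild type 1 and high in SnoN cKO 2, with Ppp1r17 at -0.69 in SnoN cKO 2 and Foxp2 at 0.28 in wild type 1 as exceptions.

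Many markers were high or low in the same libraries. SnoN cKO 2 had the highest level of 7 of the 10 markers and wild type 1 the lowest level of 6. Over all genes tested SnoN cKO 2 was highest for 22.4% and wild type 1 lowest for 16.6%. These were also the libraries with high Xist, at 2536 and 2607 CPM against 2.52 to 3.29 CPM in the others. The part of sex in the marker levels was not tested. In wild type 3, 7 of 10 markers were above their own mean over the 6 libraries, in SnoN cKO 1 there were 5 and in SnoN cKO 3 there were 4. The summed level of the 10 markers was 1989, 2040.0 and 2183 CPM in wild type 1, 2 and 3 and 2126, 2348 and 2079 CPM in SnoN cKO 1, 2 and 3, so wild type 3 lay above SnoN cKO 1 and 3.

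SnoN cKO 2 differed in its makeup from the other libraries in several lists at once. The 13 granule precursor genes summed to 3008 CPM in it, the highest of 6 libraries, and to 2468 CPM in wild type 1, the lowest. It was the highest library for 11 of the 13. Unipolar brush and cerebellar nucleus genes, 12 of 12 measured and none at 0, summed to 374.9 CPM in SnoN cKO 2, to 458 and 452 CPM in SnoN cKO 1 and 3 and to between 462 and 511 CPM in wild type. The brainstem and spinal cord genes summed to 51.0 to 64.6 CPM in wild type and to 36.4 to 49.6 CPM in SnoN cKO. Of these 25 genes 10 passed the filter, and all 10 had a negative log2 fold change. Their median was -1.09 against -0.002 over all genes, and 0 were called by edgeR, as over all genes. Without SnoN cKO 2 the median was -0.72, with 1 of 12 positive, so lower values were not confined to that library. The part of these tissues in the marker levels was not tested. Of 10 forebrain genes 3 passed the filter on low counts, and Emx1, which marks that tissue, did not.

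Within SnoN cKO 2, some Purkinje genes lay below all other libraries and some above. The genes given here were chosen after their values were seen. Ppp1r17 was at 2.03 CPM against 3.06 to 4.23 CPM in the other 5 libraries. The glutamate transporter gene Slc1a6 was at 35.9 against 54.8 to 62.1 CPM. Pcp4l1, a relative of Pcp4, was at 29.4 against 43.5 to 55.3 CPM, with wild type 3 next lowest. The choroid plexus sum was also lowest in SnoN cKO 2, at 185.5 CPM, followed by wild type 3 at 2173 CPM. The part of that tissue in the Pcp4l1 value was not tested. Ppp1r17, Slc1a6 and Pcp4l1 were lowest in SnoN cKO 2. The early factors Lhx5 at 63.1 CPM, Skor2, a corepressor of the Ski family in Purkinje cells, at 31.1 against 22.1 to 28.1 CPM, and Ebf2 at 29.8 against 19.2 to 25.1 CPM were highest in it. Of all 20 development factors 10 were highest in SnoN cKO 2 and 3 were lowest, the latter being En1 at 16.9 CPM, Ldb2 at 8.73 CPM and Esrrg at 136 CPM. Of the 25 other enriched genes 11 were highest in it and 7 lowest. Over all genes tested 22.4% were highest and 24.6% lowest in SnoN cKO 2. Among genes of mature cells, Itpr1, Calb1 and Car8 were also highest in SnoN cKO 2, and the comparison rests on 1 library.

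**Figure D4:**
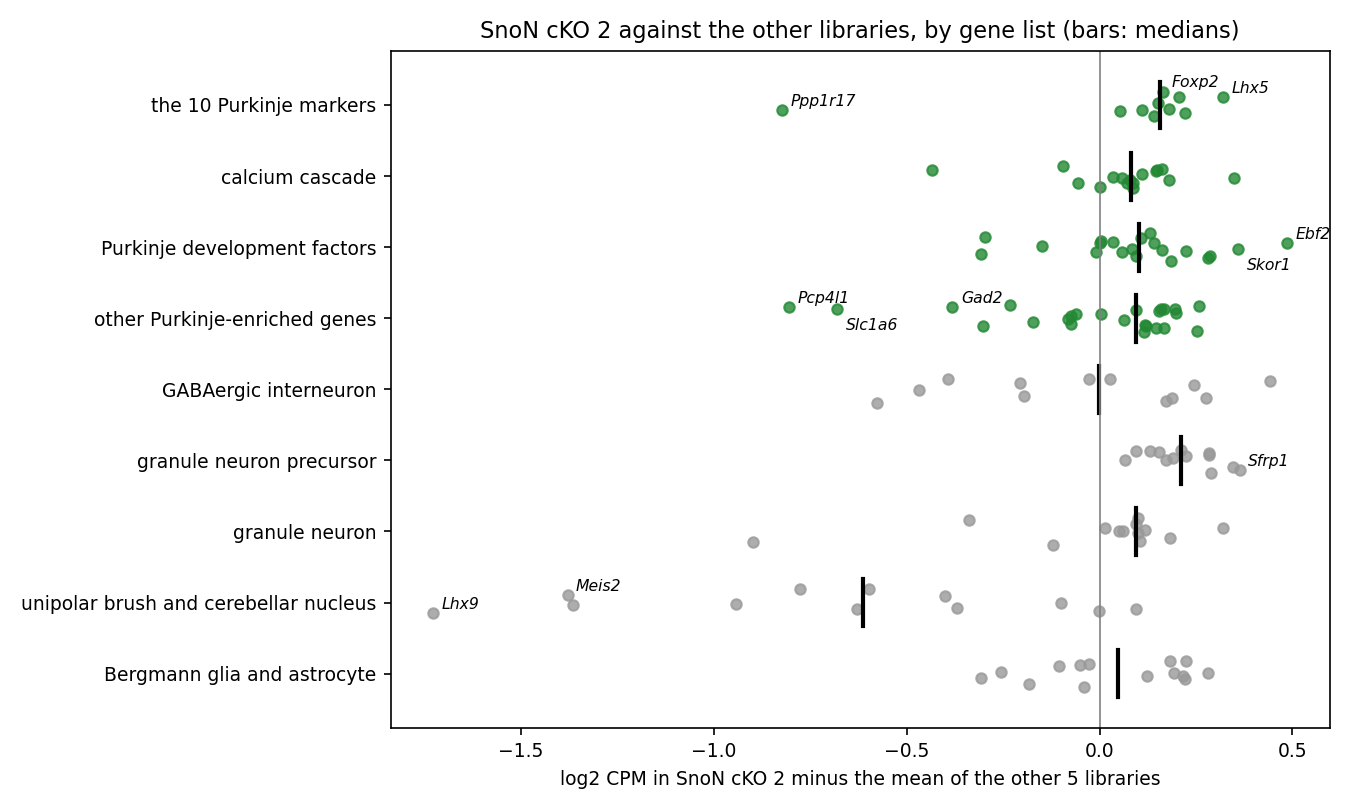
Log2 CPM in SnoN cKO 2 minus the mean of the other 5 libraries, 1 point per gene, by gene list, with list medians as bars and some genes named. The 10 markers have a median of 0.16 with Ppp1r17 at -0.82, granule precursors a median of 0.21, and unipolar brush and cerebellar nucleus genes a median of -0.61.

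No other gene of the cascade through Itpr1 passed the test. Of 17 genes 16 passed the filter, 12 with a positive and 4 with a negative log2 fold change, a median of 0.04, and 0 called by edgeR, with 0 also at an unadjusted p under 0.05. The scaffold gene Homer3, the kinase gene Itpka and the release channel gene Ryr1 came to 0.10 (SE 0.06), 0.19 (SE 0.12) and 0.14 (SE 0.08) on the log2 scale.

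No factor of Purkinje cell development passed the test either. All 20 passed the filter, 12 positive and 8 negative, with a median log2 fold change of 0.06, which was -0.02 without SnoN cKO 2. By edgeR 0 were called and 1, Skor1, had an unadjusted p under 0.05. Skor1, a paralogue of Skor2, was at 63.7, 64.1 and 64.85 CPM in the wild type libraries and at 67.9, 84.2 and 67.3 CPM in SnoN cKO, without overlap (log2 fold change 0.19, SE 0.08, adjusted p = 0.638 from edgeR). Skor2 was at 22.1, 25.1 and 28.1 CPM in the wild type libraries and at 28.1, 31.1 and 24.75 CPM in SnoN cKO, which overlapped. Ptf1a, the factor that specifies GABAergic cerebellar progenitors, was at 3.21, 4.12 and 3.585 CPM against 5.17, 4.2 and 4.28 CPM, without overlap and with a log2 fold change of 0.31 (SE 0.17). Its counts were low, at 41 to 73 per library, and the closest libraries, wild type 2 and SnoN cKO 2, had 62 counts each. The engrailed gene En2 and the zinc finger gene Zfp521 came to 0.13 (SE 0.06) and 0.10 (SE 0.05) on the log2 scale.

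Of 25 further genes enriched in Purkinje cells 11 were positive and 14 negative, with a median log2 fold change of -0.02. By edgeR 0 were called and 3 had an unadjusted p under 0.05. Shh, the mitogen that Purkinje cells send to granule neuron precursors, was at 5.4, 4.38 and 5.85 CPM in the wild type libraries and at 5.09, 5.89 and 3.99 CPM in SnoN cKO. Its log2 fold change was -0.06, with a 95% interval from -0.47 to 0.34. Sgk1, a kinase that also responds to stress hormones, Stk17b and the receptor gene Kit, which molecular layer interneurons express, were separated between genotypes with log2 fold changes of 0.17, 0.17 and 0.11. Their unadjusted p values by edgeR were 0.00472, 0.0214 and 0.0319 and their adjusted p 0.637. Aldoc, the zebrin stripe marker that glia also express, was at 192, 229 and 172 CPM in the wild type libraries and at 175, 181.5 and 193 CPM in SnoN cKO, which overlapped. The calcium channel gene Cacna1g gave -0.12 (SE 0.06) on the log2 scale.

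Beside these, the 12 genes of GABAergic interneurons had a median log2 fold change of -0.09, with 5 positive and 7 negative. Pax2, a factor of immature interneurons, gave 0.23 (SE 0.105) on the log2 scale. Tfap2a at 0.16 (SE 0.06) and Prkcd at -0.34 (SE 0.13) were without overlap, 1 gene in each direction. Of all genes 6.95% were separated upward and 6.73% downward. Unipolar brush and cerebellar nucleus genes had 1 positive and 11 negative values with a median of -0.22. Of the 13 granule precursor genes 11 were positive, with a median of 0.095, beside 9 of 10 and 0.065 for the Purkinje markers, and the difference between lists was not tested. Without SnoN cKO 2 the medians were 0.03 for the Purkinje markers, 0.02 for the granule precursors, -0.04 for the interneuron genes and -0.08 for the unipolar brush and cerebellar nucleus genes.

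**Figure D5:**
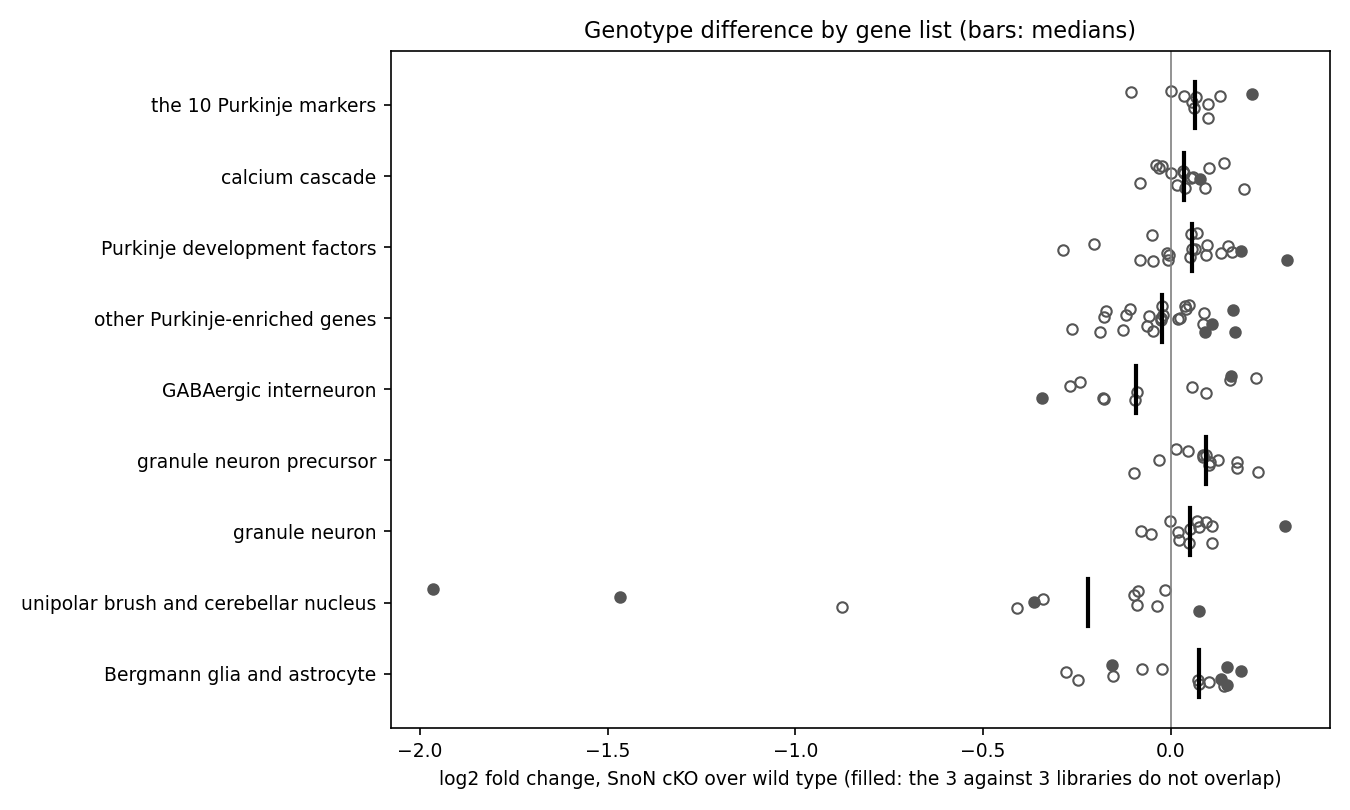
Log2 fold change of SnoN cKO over wild type on the x axis, 1 point per gene that passed the filter, by gene list, with list medians as bars and filled points where the 3 against 3 libraries do not overlap. The Purkinje lists lie close to 0, with medians from -0.02 to 0.065, and the unipolar brush and cerebellar nucleus list reaches to -1.96 for Lhx9.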

How the data were processed

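The deposited table holds whole-number read counts by gene, not normalized by the authors, for 6 libraries. The tools that the submitters' processing notes list are STAR 2.0.4b, featureCounts 1.4.5 and Subread, and the build is mm9. The annotation is not given in the sources used here. Genes were read by symbol, because the identifier column was out of step with the symbols. The library kit, per the labels, does not record strand. The 140 entries that repeated a symbol with the same counts were kept once.

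From the counts, edgeR 4.0.16 in R 4.3.3 was run with filterByExpr at a minimum count of 10, TMM scaling and a two-sided quasi-likelihood test of genotype on all 6 libraries, without covariates. P-values were adjusted by Benjamini-Hochberg over all 15457 genes, with a threshold of 0.05. Over all genes the common biological coefficient of variation came to 9.71%. CPM are counts over TMM-scaled totals, and log2 CPM used a prior count of 2. Values are per library or mean and SD. The SE of a log2 fold change came from the F statistic and the 95% interval from 9.93 degrees of freedom. No exact permutation test was run, since 0.1 is the smallest two-sided p that 3 against 3 allows. The fit was tested on simulated counts. DESeq2 1.42.0, limma 3.58.1 and other scalings, filters and covariates were alternatives.

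The members and lists were chosen with earlier results of these data known. Named genes were the 10 markers, Skil, partners fixed by name, of which Shh, Skor2 and Aldoc are given, Ttr and Hox genes, and members of each list with the smallest p, of which examples are given. Lhx9 and Lhx2, Xist, Ddx3y, Gm42418, Pet100, Igsf5, Pcp4l1, Slc1a6 and Ebf2 were named after their values were seen. Some results that concern items not reported here were left out.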

Additional observations from a re-analysis of the deposited data

How the results depend on the processing

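No Purkinje marker passed the adjusted threshold under any of the 15 alternatives, and of 150 marker values 134 kept their direction. The number of all genes called moved from 0 to 6 with DESeq2, to 39 without the filter on low counts, to 1 with the labelled sex as covariate and to 7 with SnoN cKO 1 and 2 left out together, an alternative chosen after seeing the data. In that last fit the lone SnoN cKO library is assumed to vary like wild type, and the marker median was 0.02. The sex labels of SnoN cKO 1 and 2 go against their Xist counts. The sex covariate therefore does not stand for the sex read from Xist, which was not fitted. With 1 library left out the marker median ran from 0.034 to 0.113. With the replicate block it was 0.068 and 0 markers and 0 genes were called. Deviations from the genotype mean correlated at -0.04, -0.32 and -0.18 for same-numbered libraries and at -0.17 to 0.39 for the others. With 3 libraries per genotype these values cannot show whether the numbers mark pairs. The numbers are not read as pairs, since nothing in the labels ties them to litters. The log2 fold change of Ppp1r17 turned to -0.001 with DESeq2, -0.022 with library totals alone, -0.063 with limma-voom, -0.003 with the labelled sex and -0.043 with the block. With 1 library left out Ppp1r17 ran from -0.158 (without SnoN cKO 1) to 0.269 (without SnoN cKO 2), Itpr1 from -0.017 to 0.1, Pcp2 from -0.008 to 0.146 and Foxp2 from -0.206 to 0.014. Without SnoN cKO 1 and 2 Itpr1, Pcp2, Rora and Lhx1 were at -0.09, -0.012, -0.012 and -0.007. The cause was not tested. Depth limits Ppp1r17 most, at 30 to 69 counts per library.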

Other observations

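The identifier column of the deposited table did not belong to the symbols beside it. Of 39647 entries whose identifier and symbol are both in GENCODE M21, 97 had the identifier of the listed symbol. Of 1514 olfactory and vomeronasal receptor genes found by symbol, 1 had over 60 counts in the 6 libraries together, and of 1455 found by identifier 490 did. Such receptors have little known expression in cerebellum, and the counts were therefore read by symbol. A reading by identifier would have given Purkinje markers the counts of other genes.

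Among the development factors and the other enriched genes, those with every SnoN cKO library above every wild type library were Skor1 and Ptf1a of the former and Sgk1, Stk17b, Kit and Ptprr of the latter. No gene of these lists was separated the other way, where 6.95% of all genes were above and 6.73% below. None passed the adjusted threshold by edgeR.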
